A study of Homo sapiens with 24 samples.

Results

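The 9 mRNAs described here belong to the antioxidant programme of NRF2, the transcription factor encoded by NFE2L2. They were chosen by name: HMOX1, NQO1, GCLC, GCLM, TXNRD1, SRXN1, SLC7A11, TXN and NFE2L2 itself. All 9 were found among the 57992 genes of the count table, and 8 were among the 14360 genes with enough counts to be tested. SRXN1, with 0 to 28 counts per library, was not tested.

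HEK293T, a human embryonic kidney line, had been made to express stably a fusion of the photosensitiser miniSOG with 1 of 3 proteins, and RNA near the fusion was tagged in blue light. TIA1-miniSOG and G3BP2-miniSOG lines carry stress granule proteins, and the miniSOG-DDX6 line carries an RNA helicase of processing bodies. Illuminated miniSOG oxidises nearby bases, propargylamine joins the oxidised bases, and biotin is then clicked on for capture on streptavidin. The study asked which RNAs lie near each bait.

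The TIA1, G3BP2 and DDX6 lines were each stressed with 0.5 mM sodium arsenite. The treatment lasted 1 hr, of which 40 min came ahead of the probe. The DDX6 line was also taken unstressed. Each of these 4 combinations had a labelled capture, the input of the same labelled RNA before capture, and a no-probe capture that lacked propargylamine. Labelled captures and inputs received 10 mM propargylamine for 5 min, and every group was illuminated at 24 mW/cm2 for 15 min. Each group had 2 libraries, so there were 24 in 12 groups. Bait and cell line cannot be told apart, since each bait had its own line. The labels name neither the promoter that drives each fusion nor whether a line is 1 clone. Nor do they say whether the 2 libraries of a group came from separate cultures, so p-values measure only the spread between these libraries.

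In unstressed cells KEAP1 holds NRF2 for ubiquitination and destruction. Arsenite and other electrophiles modify KEAP1, NRF2 accumulates, pairs with a small MAF protein and binds antioxidant response elements in its target genes, where the repressor BACH1 competes with it. The targets make glutathione, reduce thioredoxin and break down haem, and several are among the classic transcripts induced by arsenite.

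On GRCh38, by GENCODE release 29, GCLC lies at chr6:53497341-53616970 (minus strand), GCLM at chr1:93885205-93909456 (minus) and SLC7A11 at chr4:138164097-138242349 (minus). TXNRD1 lies at chr12:104215779-104350305 (plus), TXN at chr9:110243811-110256640 (minus) and SRXN1 at chr20:646615-653370 (minus). HMOX1 lies at chr22:35380361-35394214 (plus), NQO1 at chr16:69706996-69726951 (minus) and NFE2L2 at chr2:177227595-177392697 (minus). All 9 are protein-coding.

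A core of the antioxidant response element, TGACNNNGC on either strand, was searched in RefSeq promoters (GRCh38.p14) that run from 250 bases before to 50 bases after each gene's start. Its TGAC also begins the motif of AP-1, another stress factor. The core was present in 13.3% of 35116 promoters. Promoters were at hand for 7 members, 9 promoters in all, and 3 of the 9 held the core, 1 of GCLM and both of TXNRD1. The stretches around a core that lay wholly before the RefSeq start are shown, since binding to this element is what ties genes to NRF2, with the core in capitals and each sequence 5′ to 3′ on the gene's strand.
GCLM, chr1:93909430-93909490, minus strand: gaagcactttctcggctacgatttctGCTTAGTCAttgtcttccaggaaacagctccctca
TXNRD1, chr12:104215654-104215714, plus strand: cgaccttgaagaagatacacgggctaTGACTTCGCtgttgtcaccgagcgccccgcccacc
TXNRD1, other start, chr12:104286904-104286964, plus strand: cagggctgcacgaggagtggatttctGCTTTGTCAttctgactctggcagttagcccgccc
The core began 34 bases before the RefSeq start of GCLM, and 99 and 102 bases before the 2 RefSeq starts of TXNRD1. For GCLM the GENCODE gene, which ends at 93909456 on this minus strand, starts further upstream than RefSeq does and takes in the end of that stretch. The first TXNRD1 promoter held another core that began 8 bases before the start. No core was found in the windows of GCLC, NQO1, SRXN1, TXN or NFE2L2. Bases outside these windows were not searched, so elements further away would be missed. No promoter of HMOX1 or SLC7A11 was at hand. A match is a description of letters and not a measured binding site.

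Total counts ran from 2511043 to 3825961 in inputs, from 3344960 to 5919467 in labelled captures and from 1129510 to 3472565 in no-probe captures. Mitochondrial genes took 23.7% to 31.6% of the counts of inputs, 18.8% to 30.2% of no-probe captures and 1.74% to 8.48% of labelled captures. Levels are given as CPM, a count divided by the effective library size, with TMM scaling (the trimmed mean of M values). Replicate libraries correlated at 0.934 to 0.989 (Pearson r of log2 CPM across genes), and no pair matched within sampling noise. The 4 markers of HEK293 cells fixed for this check were detected in all 8 inputs, and of 10 markers of other cell types 5 were at 0 counts in every input and 8 at 2 counts or fewer. COL1A1, a fibroblast marker, was detected at 14.5 to 25.2 CPM.

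Tests used edgeR's quasi-likelihood test in 1 fit to all 24 libraries, with Benjamini-Hochberg adjustment over the 14360 genes and a threshold of 0.05. Adjusted p-values below are from it. Enrichment is the level in labelled captures relative to inputs. Probe dependence is the level in labelled captures relative to no-probe captures. Fold changes are log2 values ± SE of the fit.

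Per kilobase of exon, inputs held far more TXN than any other member. Group means in the 4 inputs ran from 114 to 163 CPM per kb for TXN, from 14.9 to 18.8 for TXNRD1 and from 6.94 to 34.1 for HMOX1. SLC7A11 followed at 1.80 to 9.73 CPM per kb, NFE2L2 at 3.98 to 7.05, GCLM at 3.35 to 6.67 and GCLC at 2.53 to 3.83. NQO1, at 0.681 to 1.90 CPM per kb, and SRXN1, at 0.257 to 1.09, were the lowest. The ranges of SLC7A11, NFE2L2, GCLM and GCLC overlapped one another, as did those of HMOX1 and TXNRD1. Exon lengths are those of GENCODE release 29 and take in all annotated exons of a gene.

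**Figure D1:**
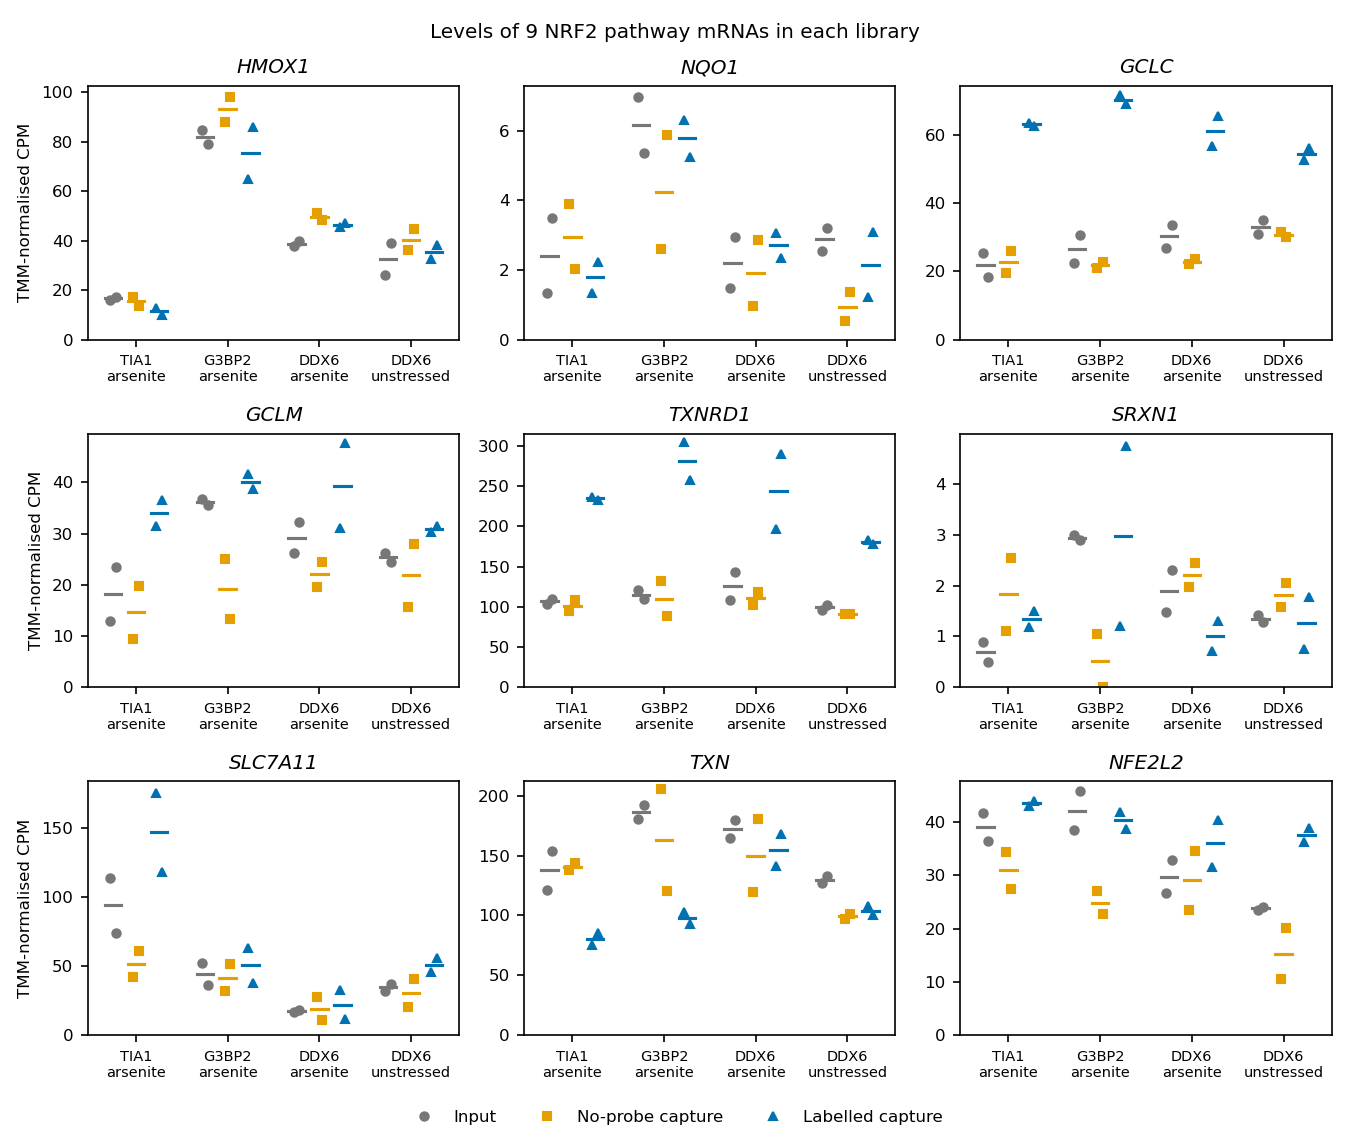
Level of each of the 9 mRNAs in every library, in TMM-normalised CPM on a linear axis that starts at 0. Grey circles are inputs, orange squares no-probe captures and blue triangles labelled captures, with a bar at the mean of the 2 libraries; GCLC and TXNRD1 labelled captures lie above all their inputs and no-probe captures in each of the 4 combinations.

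GCLC, an enzyme subunit of glutathione synthesis, and TXNRD1, of the thioredoxin system, were higher in labelled captures than in inputs with every bait. Under arsenite the TIA1 capture had 3 members higher (GCLC, GCLM, TXNRD1) and 1 lower (TXN), where 19.4% and 16.4% of all tested genes were called higher and lower. The G3BP2 capture had 2 higher (GCLC, TXNRD1) and 1 lower (TXN), beside 20.8% and 17.5% of all genes. DDX6 under arsenite had 2 higher (GCLC, TXNRD1) and 0 lower, beside 20.4% and 17.3%. Unstressed DDX6 had 3 higher (GCLC, TXNRD1, NFE2L2) and 0 lower, beside 22.9% and 19.6%. Such large shares of all genes were called in every capture that nothing is read from the counts of 8 members, which are described 1 by 1. In both DDX6 captures the number of members lower at an unadjusted p under 0.05 was also 0, and DESeq2 called 2 and 3 members, as edgeR did. Of all tested genes 6686 under arsenite and 7184 without it were under that unadjusted p, in either direction.

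Against the no-probe captures, 4 members were higher and 1 lower with TIA1 (23.7% and 21.7% of all genes), and 4 were higher and 1 lower with G3BP2 (23.7% and 21.7%). With DDX6, 3 were higher under arsenite (22.5% of all genes) and 3 in unstressed cells (25.1%), with 0 lower in both (20.2% and 23.1%). There the members with an unadjusted p under 0.05 were 3 in each state, all higher, and DESeq2 called 3 in each. Of all tested genes 7232 under arsenite and 7815 without it were under that unadjusted p, in either direction. Called the same way in both comparisons were 3 higher and 1 lower for TIA1 (17.7% and 14.6% of all genes), 2 higher and 1 lower for G3BP2 (17.6% and 13.4%), 2 higher for DDX6 under arsenite (17.7%) and 3 higher for unstressed DDX6 (19.9%).

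**Figure D2:**
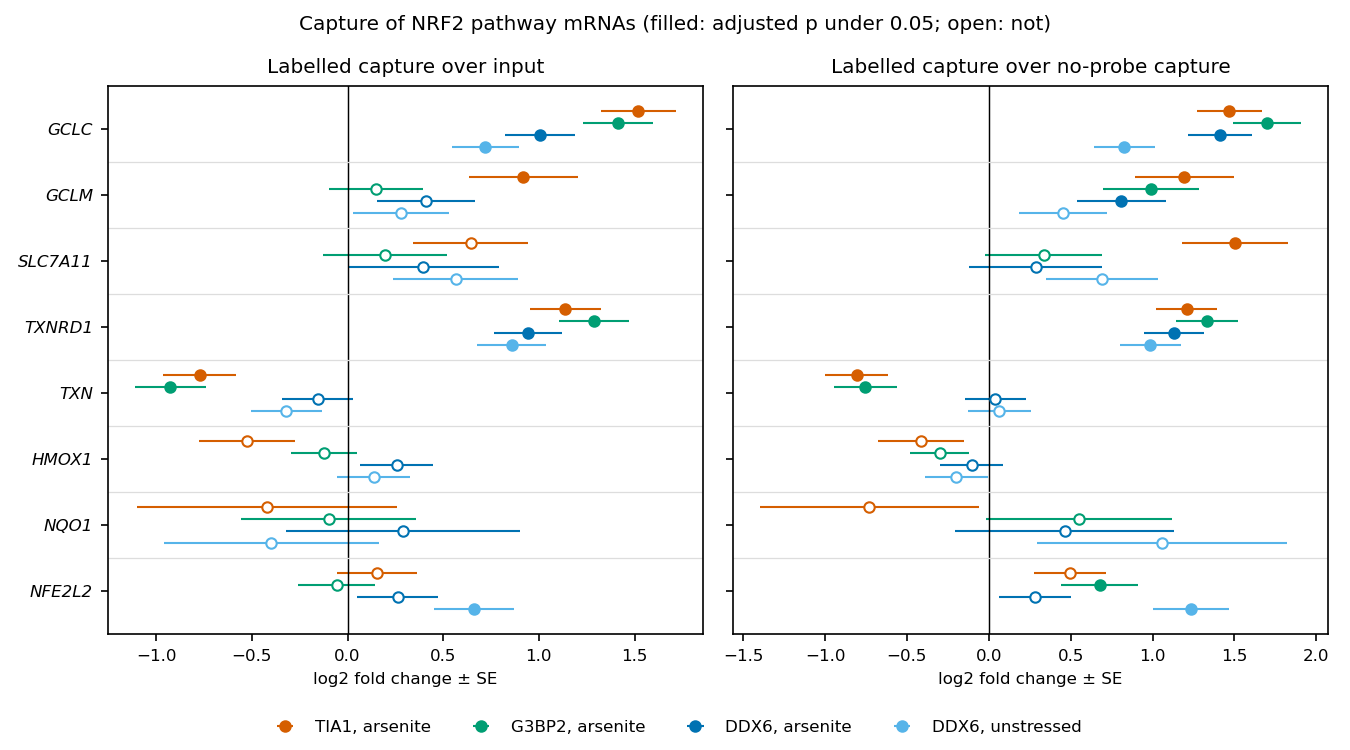
Enrichment over input (left) and over no-probe capture (right) of the 8 tested mRNAs, as log2 fold change with its SE (horizontal axis), coloured by bait and treatment. Filled points have an adjusted p under 0.05; GCLC and TXNRD1 are filled in all 8 comparisons, and TXN is filled and negative with TIA1 and G3BP2 alone.

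GCLC encodes the catalytic subunit of glutamate-cysteine ligase, which carries out the rate-limiting step of glutathione synthesis. With TIA1 its 2 labelled captures held 63.5 and 62.6 CPM, its inputs 25.3 and 18.4, and its no-probe captures 19.4 and 25.96. With G3BP2 the labelled captures held 71.6 and 68.96 CPM, the inputs 22.5 and 30.6, and the no-probe captures 20.9 and 22.7. The labelled libraries were high with both stress granule baits, while inputs and no-probe captures overlapped each other.

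With DDX6 under arsenite the GCLC values were 56.6 and 65.6 CPM in labelled captures, 27.0 and 33.5 in inputs, and 22.1 and 23.6 in no-probe captures. In unstressed DDX6 cells they were 52.7 and 56.1 CPM in labelled captures, 31.1 and 35.1 in inputs, and 31.4 and 30.0 in no-probe captures. Across all 4 combinations the lowest labelled library, at 52.7 CPM, lay above the highest input, at 35.1, and the highest no-probe capture, at 31.4.

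GCLC enrichment was 1.52 ± 0.20 with TIA1 (adjusted p = 5.8e-07), 1.42 ± 0.18 with G3BP2 (4.49e-07), 1.01 ± 0.18 with DDX6 under arsenite (6.84e-05) and 0.72 ± 0.17 with unstressed DDX6 (0.00147). Probe dependence was of like size, at 1.47 ± 0.20, 1.70 ± 0.21, 1.41 ± 0.20 and 0.83 ± 0.18 in the same order, with adjusted p-values of 5.6e-07, 1.16e-07, 1.58e-06 and 0.00049. The no-probe capture over input, which shows what binds without the probe and was estimated but not tested, lay between -0.40 ± 0.21 and 0.05 ± 0.24. GCLC passed the threshold in all 8 comparisons under every alternative with a test, with adjusted p at most 0.0318. Removing the trend with GC content left enrichments of 1.25, 1.24, 0.74 and 0.44.

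GCLM encodes the modifier subunit of the same ligase, and its enrichment passed in fewer captures than that of its partner, though the genes were not compared by a test. With TIA1 the labelled captures held 31.5 and 36.5 CPM, the inputs 12.9 and 23.4, and the no-probe captures 9.43 and 19.9. GCLM labelled captures lay above both other kinds of library there, although the inputs and the no-probe captures were each widely spread. With G3BP2 they held 41.6 and 38.6 CPM, beside inputs of 36.8 and 35.5 and no-probe captures of 25.04 and 13.4.

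In DDX6 cells under arsenite GCLM stood at 31.1 and 47.5 CPM in labelled captures, 26.2 and 32.2 in inputs, and 19.6 and 24.4 in no-probe captures. Without arsenite it stood at 30.2 and 31.4 CPM in labelled captures, 26.3 and 24.5 in inputs, and 15.7 and 27.9 in no-probe captures. The labelled libraries overlapped the inputs under arsenite and lay a little above them without it.

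GCLM enrichment passed with TIA1, at 0.92 ± 0.29 (adjusted p = 0.0117), and was 0.15 ± 0.24, 0.41 ± 0.25 and 0.28 ± 0.25 with G3BP2, DDX6 under arsenite and unstressed DDX6, which did not pass. Under total-count scaling all of these passed, at 0.68 with G3BP2 (adjusted p = 0.022), 0.95 with DDX6 under arsenite (0.00259) and 0.74 with unstressed DDX6 (0.0155). The medians of all genes then stood at 0.522, 0.513 and 0.466. Without labelled capture 1 the GCLM enrichment with DDX6 under arsenite was 0.74. Whether TIA1 differed from the other baits was tested and is given with the bait differences. Over the no-probe captures GCLM was higher in the 3 arsenite combinations, at 1.19 ± 0.30 with TIA1 (adjusted p = 0.00164), 0.99 ± 0.29 with G3BP2 (0.00655) and 0.81 ± 0.27 with DDX6 (0.0175), and stood at 0.45 ± 0.27 in unstressed DDX6 cells (0.165). The last passed under total-count scaling (0.77, adjusted p = 0.0182, beside an all-gene median of 0.281) and with no filter on low counts (0.65, 0.0382). Without no-probe capture 2 of unstressed DDX6 it was 1.02. The TIA1 enrichment no longer passed without TIA1 labelled library 2 (0.83, adjusted p = 0.0558) or without TIA1 input 1 (0.57, 0.253), and was 0.19 once the GC trend was removed. Each GCLM call over a no-probe capture was lost without some library: no-probe capture 1 for TIA1 (0.81, adjusted p = 0.0822), no-probe capture 2 for G3BP2 (0.71, 0.107), and labelled capture 2 (0.54, 0.168) or no-probe capture 1 (0.71, 0.0825) for DDX6 under arsenite. The DDX6 call was also lost in a fit to the compared groups alone (0.71, adjusted p = 0.0848).

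SLC7A11 encodes the light chain of the cystine importer that supplies cysteine for glutathione. In TIA1 cells it stood at 175 and 118 CPM in labelled captures, 113 and 74.3 in inputs, and 42.2 and 61.1 in no-probe captures. In G3BP2 cells it stood at 63.0 and 38.0 CPM in labelled captures, 52.0 and 36.0 in inputs, and 31.8 and 51.2 in no-probe captures. Labelled captures lay above inputs in TIA1 cells and overlapped them in G3BP2 cells.

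In DDX6 cells under arsenite SLC7A11 stood at 32.4 and 11.8 CPM in labelled captures, 16.6 and 18.1 in inputs, and 27.5 and 11.0 in no-probe captures. In unstressed DDX6 cells it stood at 45.7 and 56.1 CPM in labelled captures, 31.6 and 37.3 in inputs, and 20.4 and 40.5 in no-probe captures. The 2 labelled DDX6 captures under arsenite lay far apart, with both inputs between them, and without arsenite the labelled captures lay above the inputs.

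SLC7A11 enrichment did not pass as fitted to all libraries, with 0.64 ± 0.30 for TIA1 (adjusted p = 0.0959), 0.19 ± 0.32 for G3BP2 (0.67), 0.40 ± 0.39 for DDX6 under arsenite (0.447) and 0.57 ± 0.33 for unstressed DDX6 (0.164). Probe dependence was called with TIA1, at 1.51 ± 0.32 (adjusted p = 0.000314), where the no-probe capture over input was itself -0.86 ± 0.34. The TIA1 enrichment passed without the low-count filter (0.84, adjusted p = 0.000142), in a fit to the compared groups alone (0.59, 0.00685), under total-count scaling (1.30, 0.0019) and without labelled capture 2 (0.92, 0.0425). With the GC trend removed it was -0.19. The unstressed DDX6 enrichment also passed without the filter (0.75, adjusted p = 0.00254), in the compared groups alone (0.51, 0.00062) and under total-count scaling (1.03, 0.0185). Unstressed DDX6 probe dependence passed in the same 3 settings (0.89, 0.000331, then 0.62, 0.00637, and 1.01, 0.0273) and without no-probe capture 2 (1.37, 0.0244). That of G3BP2 passed without the filter (0.62, 0.0321). By total counts the all-gene median was 0.675 for TIA1 enrichment, 0.466 for unstressed DDX6 enrichment and 0.281 for unstressed DDX6 probe dependence. SLC7A11-AS1, on the opposite strand, shares 865 of the 9645 exon bases of SLC7A11, and it had 142 counts over all libraries.

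TXNRD1 encodes the cytosolic thioredoxin reductase, a selenoprotein that passes electrons from NADPH to thioredoxin. With TIA1 the labelled captures held 237 and 233 CPM, the inputs 104 and 110, and the no-probe captures 94.3 and 108. With G3BP2 they held 304 and 258 CPM, beside inputs of 121 and 109 and no-probe captures of 132 and 88.1. With both baits each labelled library lay above every input and no-probe capture of its line.

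With DDX6 under arsenite TXNRD1 stood at 197 and 290 CPM in labelled captures, 108 and 144 in inputs, and 103 and 118 in no-probe captures. Without arsenite it stood at 183 and 178 CPM in labelled captures, 96.6 and 103 in inputs, and 90.6 and 91.6 in no-probe captures. Over the whole series the lowest labelled library, at 178 CPM, lay above the highest input, at 144, and the highest no-probe capture, at 132.

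TXNRD1 enrichment was 1.14 ± 0.18 with TIA1 (adjusted p = 1.37e-05), 1.29 ± 0.18 with G3BP2 (1.57e-06), 0.94 ± 0.18 with DDX6 under arsenite (0.000134) and 0.86 ± 0.18 with unstressed DDX6 (0.000345). Over the no-probe captures it was 1.21 ± 0.19, 1.33 ± 0.19, 1.13 ± 0.18 and 0.99 ± 0.18 in the same order, all called, while the no-probe captures differed from inputs by -0.19 ± 0.19 to -0.04 ± 0.19. TXNRD1 passed in all 8 comparisons under every alternative with a test, with adjusted p at most 0.0239. With the GC trend removed its enrichments were 0.90, 1.14, 0.71 and 0.61.

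TXN encodes thioredoxin, the small redox protein that TXNRD1 reduces, and it moved the other way from its reductase in the stress granule captures. With TIA1 the labelled captures held 75.6 and 85.6 CPM, the inputs 121 and 154, and the no-probe captures 138 and 144. With G3BP2 they held 103 and 92.8 CPM, beside inputs of 181 and 193 and no-probe captures of 206 and 121. In both lines each labelled library lay below every input and no-probe capture of that line.

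In DDX6 cells under arsenite TXN stood at 142 and 168 CPM in labelled captures, 164 and 180 in inputs, and 119 and 181 in no-probe captures. In unstressed DDX6 cells it stood at 108 and 100 CPM in labelled captures, 127 and 133 in inputs, and 97.4 and 101 in no-probe captures. The labelled libraries overlapped the inputs under arsenite, and overlapped the no-probe captures in both states.

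TXN was lower in the TIA1 capture by -0.77 ± 0.19 (adjusted p = 0.00198) and in the G3BP2 capture by -0.93 ± 0.19 (0.000205), and lower than the no-probe captures by -0.81 ± 0.19 (0.000961) and -0.75 ± 0.19 (0.0019). In DDX6 cells its enrichment was -0.16 ± 0.19 under arsenite (0.535) and -0.32 ± 0.19 without it (0.168), and the latter passed in a fit to the compared groups alone (-0.38, 0.000194). Each of the TIA1 and G3BP2 calls was lost in some alternative, be it total-count scaling, no filter on low counts or a single library left out. Under total-count scaling, which raised the median enrichment of all genes by 0.655 with TIA1 and 0.531 with G3BP2, TXN stood at -0.11 (adjusted p = 0.635) and -0.39 (0.0568). Its TIA1 probe dependence turned to 0.04 (0.869), beside an all-gene median of 0.875. That of DDX6 under arsenite was called higher (0.55, 0.00974), beside 0.451.

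Without TIA1 input 2 the TXN enrichment was -0.55 (adjusted p = 0.0966), and without G3BP2 no-probe capture 1 its probe dependence was -0.24 (0.44). The latter was -0.47 (0.0551) with no filter on low counts. TXN has a short transcript, of 869 bases where the median of tested genes was 3533, and enrichment rose with transcript length across genes, with a Spearman rho of 0.36 for TIA1 and 0.341 for G3BP2 over 14327 genes. With that length trend removed the TXN values were -0.16 for both baits, and with the GC trend removed they were -1.15 and -1.16. The annotation also holds 7 TXN pseudogenes, whose reads may be shared with TXN.

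HMOX1 encodes haem oxygenase 1, which opens the haem ring and is a classic arsenite-induced gene, and NQO1 encodes a quinone reductase. HMOX1 labelled captures held 12.9 and 10.1 CPM with TIA1, 65.0 and 85.9 with G3BP2, 45.6 and 47.0 with DDX6 under arsenite, and 32.7 and 38.4 with unstressed DDX6. The inputs in the same order held 16.0 and 17.4, 84.9 and 78.9, 37.7 and 39.7, and 25.98 and 38.9 CPM. No-probe captures held 17.2 and 13.7, 88.1 and 98.2, 51.1 and 48.5, and 36.1 and 44.6 CPM. HMOX1 levels were lowest in TIA1 cells and highest in G3BP2 cells in all 3 kinds of library. With G3BP2 and unstressed DDX6 the labelled captures and inputs overlapped.

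HMOX1 enrichment did not pass as fitted with TMM scaling, at -0.53 ± 0.25 with TIA1 (adjusted p = 0.104, 95% interval -1.04 to -0.01), -0.12 ± 0.17 with G3BP2 (0.608), 0.26 ± 0.19 with DDX6 under arsenite (0.3) and 0.14 ± 0.19 with unstressed DDX6 (0.587). Under total-count scaling it passed with DDX6 under arsenite (0.80, adjusted p = 0.00316) and with unstressed DDX6 (0.60, 0.0223), beside all-gene medians of 0.513 and 0.466. Probe dependence lay between -0.41 ± 0.26 and -0.10 ± 0.19 and did not pass either. With a GC content of 58.1% the longest HMOX1 transcript was the richest in GC of the 9, and with the GC trend removed the 4 enrichments were -0.03, 0.18, 0.71 and 0.55.

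NQO1 had 1 to 47 counts per library and SRXN1, the sulfiredoxin that repairs overoxidised peroxiredoxins, 0 to 28, so both rest on few counts. NQO1 libraries ran from 1.22 to 6.31 CPM in labelled captures, 1.33 to 6.96 in inputs and 0.524 to 5.87 in no-probe captures. NQO1 enrichment lay between -0.42 ± 0.68 and 0.29 ± 0.61, with 95% intervals as wide as -1.81 to 0.96 for TIA1, and its probe dependence between -0.73 ± 0.67 and 1.06 ± 0.76. No NQO1 comparison passed. SRXN1 libraries ran from 0.724 to 4.74 CPM in labelled captures, 0.499 to 2.98 in inputs and 0 to 2.55 in no-probe captures, and 1 G3BP2 no-probe library had no SRXN1 count. For SRXN1, 2292 of 2698 exon bases are shared with AL121758.1 on the same strand, so its counts may be incomplete.

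NFE2L2 encodes NRF2 itself. Its labelled captures held 43.0 and 44.0 CPM with TIA1, 41.9 and 38.8 with G3BP2, 31.5 and 40.5 with DDX6 under arsenite, and 36.3 and 38.8 with unstressed DDX6. Inputs in the same order held 41.7 and 36.4, 38.5 and 45.9, 26.6 and 32.8, and 23.4 and 24.1 CPM. No-probe captures held 34.4 and 27.5, 27.1 and 22.7, 23.6 and 34.6, and 10.5 and 20.1 CPM. The labelled libraries lay clear of both other kinds with TIA1, narrowly, and with unstressed DDX6.

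NFE2L2 enrichment passed with unstressed DDX6, at 0.66 ± 0.21 (adjusted p = 0.0117), and was 0.15 ± 0.21, -0.06 ± 0.20 and 0.26 ± 0.21 with TIA1, G3BP2 and DDX6 under arsenite, which did not pass. The call was lost without labelled capture 2 (adjusted p = 0.0569) or without input 1 (0.0699) of that combination. Over the no-probe captures NFE2L2 was higher with unstressed DDX6, at 1.23 ± 0.23 (adjusted p = 7.77e-05), and with G3BP2, at 0.68 ± 0.23 (0.0189), where the no-probe captures stood at -0.57 ± 0.25 and -0.73 ± 0.25 against input. The G3BP2 call was lost without labelled capture 1 (0.66, adjusted p = 0.0648) or no-probe capture 2 (0.61, 0.108). Total-count scaling put the median enrichment of all genes at 0.522 with G3BP2, 0.675 with TIA1 and 0.513 with DDX6 under arsenite. Under it NFE2L2 enrichment turned to 0.48 with G3BP2 (adjusted p = 0.0458), below the all-gene median. NFE2L2 enrichment also passed with TIA1 (0.81, 0.00133) and DDX6 under arsenite (0.80, 0.00191). By total counts its probe dependence passed with TIA1 (1.34, 2.57e-06) and DDX6 under arsenite (0.79, 0.00288), beside all-gene medians of 0.875 and 0.451. With TIA1 it also passed with no filter on low counts (0.72, 0.0146) and in the compared groups alone (0.44, 0.0445). NFE2L2 shares 54 of 5979 exon bases with AGPS on the opposite strand and 1054 with AC019080.1 on its own.

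The arsenite comparison asked whether the DDX6 line's inputs changed after 1 hr. None of the 8 members passed, beside 0.362% of all genes called higher and 0.787% called lower. At an unadjusted p under 0.05 there were 2 members, SLC7A11 and TXN, beside 2260 of all tested genes, and DESeq2 called 0 members. HMOX1 inputs held 37.7 and 39.7 CPM with arsenite and 25.98 and 38.9 without, a difference of 0.26 ± 0.20 (adjusted p = 0.54) with a 95% interval of -0.15 to 0.67. The HMOX1 groups overlapped.

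SLC7A11 showed the widest difference of the 8, with 16.6 and 18.1 CPM under arsenite and 31.6 and 37.3 without it, both arsenite inputs lying below both others. Its value was -0.98 ± 0.39 (adjusted p = 0.215, 95% interval -1.78 to -0.19). It passed with no filter on low counts (-0.97, adjusted p = 0.0129) and in a fit to the compared groups alone (-1.01, 0.0403). In bulk samples a difference in RNA per cell and in the cells sampled cannot be told apart.

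TXN inputs lay higher under arsenite in both libraries, with a difference of 0.41 ± 0.19 (adjusted p = 0.286, 95% interval 0.02 to 0.79), and so did those of TXNRD1, at 0.34 ± 0.18 (0.37, -0.04 to 0.72), and NFE2L2, at 0.33 ± 0.23 (0.489, -0.14 to 0.79). GCLM stood at 0.21 ± 0.27 (0.744), GCLC at -0.12 ± 0.19 (0.794) and NQO1 at -0.34 ± 0.64 (0.826). The median of the 8 was 0.23 where that of all tested genes was 0.02. All 8 intervals ended below 1 log2 unit, the highest at 0.96 for NQO1.

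Enrichment by DDX6 was also compared with and without arsenite, as the difference of the 2 enrichments. None of the 8 members passed, beside 0.00696% and 0.0139% of all genes called higher and lower. No member had an unadjusted p under 0.05, beside 604 of all tested genes, and DESeq2 called 0 members. The differences were 0.29 ± 0.25 for GCLC (95% interval -0.23 to 0.80), 0.08 ± 0.25 for TXNRD1 (-0.43 to 0.60), 0.16 ± 0.26 for TXN (-0.37 to 0.70) and -0.40 ± 0.30 for NFE2L2 (-1.01 to 0.21). NFE2L2 was thus called in unstressed DDX6 captures and not under arsenite, but the 2 enrichments were not shown to differ.

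**Figure D3:**
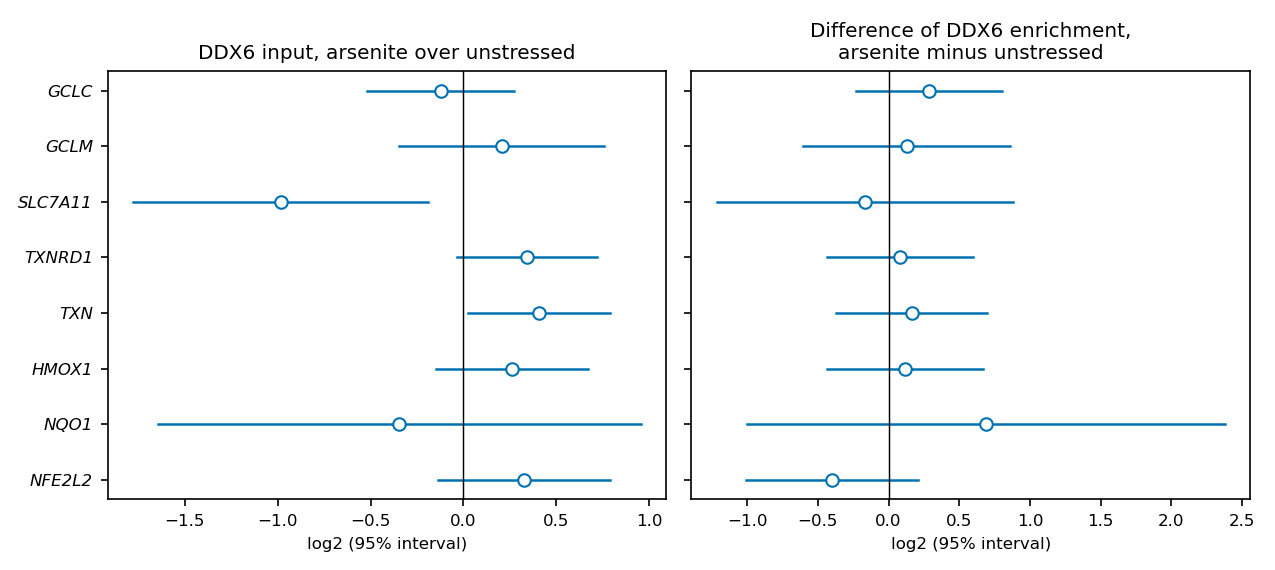
Arsenite against no arsenite in DDX6 inputs (left) and as a difference of DDX6 enrichments (right) for the 8 tested mRNAs, as log2 values with 95% intervals (horizontal axis). All points are open because no adjusted p was under 0.05; the SLC7A11 interval in the left panel, -1.78 to -0.19, lies below 0.

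Baits were compared under arsenite as differences of enrichment, and none of the 8 members passed in any of the 3 comparisons. The shares of all genes called higher and lower were 2.28% and 1.33% for TIA1 minus G3BP2, 1.51% and 0.843% for TIA1 minus DDX6, and 0% and 0.0487% for G3BP2 minus DDX6. Members with an unadjusted p under 0.05 numbered 0, 2 (HMOX1 and TXN) and 1 (TXN), beside 2759, 2499 and 1580 of all tested genes. DESeq2 called 0 members in each. The comparisons share enrichments, so their values are not independent.

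TXN, lower in the stress granule captures, differed by -0.62 ± 0.27 for TIA1 minus DDX6 (adjusted p = 0.215) and by -0.77 ± 0.26 for G3BP2 minus DDX6 (0.261). GCLC differed by 0.51 ± 0.27 for TIA1 minus DDX6 (0.326, 95% interval -0.04 to 1.06) and by 0.41 ± 0.26 for G3BP2 minus DDX6 (0.592). TXNRD1 differed by 0.20 ± 0.26 (0.754) and 0.35 ± 0.25 (0.658), and by -0.15 ± 0.26 between TIA1 and G3BP2 (0.799). GCLM differed by 0.77 ± 0.38 for TIA1 minus G3BP2 (0.261) and by 0.51 ± 0.39 for TIA1 minus DDX6 (0.532).

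Among members past the threshold, inputs of the 3 lines under arsenite differed most in HMOX1 and SLC7A11. NQO1, which rests on few counts, did not pass, at -1.38 ± 0.62 for TIA1 minus G3BP2 (adjusted p = 0.203) and 1.45 ± 0.58 for G3BP2 minus DDX6 (0.312). HMOX1 ran from 16.7 ± 1.06 CPM (SD, n = 2) in TIA1 cells through 38.7 ± 1.42 in DDX6 cells to 81.9 ± 4.19 in G3BP2 cells, with no overlap between lines. Its log2 difference was -2.30 ± 0.22 for TIA1 minus G3BP2 (adjusted p = 8.3e-08), -1.21 ± 0.24 for TIA1 minus DDX6 (0.0046) and 1.08 ± 0.19 for G3BP2 minus DDX6 (0.0015). The second was not called without TIA1 input 1 (adjusted p = 0.191) or DDX6 input 2 (0.0758), and the last without G3BP2 input 1 (0.0582). The unstressed DDX6 inputs, at 32.5 ± 9.17 CPM, overlapped those under arsenite and lay between the TIA1 and G3BP2 inputs.

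SLC7A11 was ordered otherwise, with 113 and 74.3 CPM in TIA1 inputs, 52.0 and 36.0 in G3BP2 inputs and 16.6 and 18.1 in DDX6 inputs. No 2 of these lines overlapped. TIA1 inputs were higher than DDX6 inputs by 2.44 ± 0.37 (adjusted p = 0.00019), while TIA1 minus G3BP2, at 1.09 ± 0.33 (0.0586), and G3BP2 minus DDX6, at 1.35 ± 0.39 (0.1), did not pass. Both passed with no filter on low counts (1.08, adjusted p = 9.25e-05, and 1.32, 2.64e-05) and in fits to the compared groups alone (1.101, 3.55e-05, and 1.34, 0.0107).

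GCLM was lower in TIA1 than in G3BP2 inputs by -1.01 ± 0.30 (adjusted p = 0.0468), a call lost with DESeq2 (0.0521), with scaling without mitochondrial genes (0.0502), and without TIA1 input 1 (0.497), G3BP2 input 1 (0.214) or G3BP2 input 2 (0.173). In all, 0 members were higher and 2 lower for TIA1 minus G3BP2 (2.2% and 1.94% of all genes), 1 higher and 1 lower for TIA1 minus DDX6 (0.62% and 0.258%), and 1 higher and 0 lower for G3BP2 minus DDX6 (0.292% and 0.494%). At an unadjusted p under 0.05 there were 5, 4 and 4 members in these comparisons, beside 2752, 1765 and 1572 of all tested genes. DESeq2 called 1, 2 and 1 of the members. GCLC and TXNRD1 inputs did not pass in any of the 3, with values between -0.46 ± 0.22 and -0.11 ± 0.19. The lines differ in bait, and any clonal difference cannot be told apart from it.

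Other genes of the pathway were called in both directions. Of 10 regulators of NRF2, 1 was higher and 2 lower in the TIA1 capture, 4 and 2 with G3BP2, 4 and 1 with DDX6 under arsenite, and 2, both higher, with unstressed DDX6, with medians of -0.04, 0.37, 0.12 and 0.26; by total counts these became 6 and 0, 7 and 1, 5 and 0, and 5 and 0. All-gene shares called higher and lower, which hold for each list here, were 19.4% and 16.4% with TIA1, 20.8% and 17.5% with G3BP2, 20.4% and 17.3% with DDX6 under arsenite, and 22.9% and 19.6% with unstressed DDX6. By total counts 6354 of the 14360 genes were higher and 527 lower with TIA1, 5983 and 967 with G3BP2, 5891 and 809 with DDX6 under arsenite, and 5863 and 1205 with unstressed DDX6. The list counts are given beside these as descriptions, and nothing particular to a list is read from them. BACH1, the repressor that competes with NRF2, was higher in all 4, at 1.31 ± 0.20 with TIA1 (118 ± 13.1 against 47.4 ± 6.35 CPM, SD, n = 2; adjusted p = 5.77e-06), 1.13 ± 0.19 with G3BP2 (2.31e-05), 1.38 ± 0.20 with DDX6 under arsenite (2.98e-06) and 1.17 ± 0.19 with unstressed DDX6 (1.34e-05). MAFF, a small MAF partner, was lower with G3BP2 at -1.51 ± 0.45 (2.67 against 7.29 CPM, adjusted p = 0.00804) and with DDX6 under arsenite at -1.53 ± 0.47 (0.0107), calls lost under total-count scaling (adjusted p = 0.082 and 0.0943). Scaled without mitochondrial genes, MAFF did not pass with TIA1 (-0.66, adjusted p = 0.278) or unstressed DDX6 (-0.64, 0.343). Its values rest on few counts, 6 to 29 per library.

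Of 20 tested of 22 other NRF2 targets, most called ones were lower in the captures, a balance that turned under total-count scaling. With TIA1 2 were higher and 13 lower, with G3BP2 4 and 7, with DDX6 under arsenite 3 and 6, and with unstressed DDX6 4 and 6, with medians of -0.59, -0.29, -0.13 and -0.09 beside all-gene medians of 0.02, -0.01, -0.02 and 0.01. Scaled by total counts, in the same order, 5 were higher and 3 lower, 8 and 2, 9 and 2, and 7 and 2, with medians of 0.07, 0.25, 0.41 and 0.37 beside all-gene medians of 0.675, 0.522, 0.513 and 0.466. FTL and FTH1, the ferritin chains that store iron, were lower in every capture under each scaling tried, FTL by -2.16 ± 0.22 with TIA1 (adjusted p = 1.47e-08), -2.41 ± 0.22 with G3BP2 (4.57e-10), -2.07 ± 0.22 with DDX6 under arsenite (1.93e-08) and -1.90 ± 0.22 with unstressed DDX6 (1e-07). FTL labelled captures held 37.6 CPM on average against 168 in the inputs with TIA1. Counts of FTL and FTH1 may share reads with ferritin pseudogenes.

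Of 14 other thioredoxin and glutathione genes, 3 were higher and 7 lower with TIA1, 1 and 7 with G3BP2, 2 and 3 with DDX6 under arsenite, and 4 and 7 with unstressed DDX6. By total counts these were 4 and 5, 4 and 2, 6 and 1, and 5 and 1. GPX1, a glutathione peroxidase, was lower with TIA1 at -1.55 ± 0.18 (39.6 against 116 CPM, adjusted p = 1.49e-07). Without mitochondrial genes in the scaling, it was also lower with G3BP2 (-1.11, adjusted p = 6.19e-06), DDX6 under arsenite (-0.99, 4.26e-05) and unstressed DDX6 (-0.95, 7e-05). By total counts GPX1 stayed lower in every capture, with adjusted p at most 0.0326. TXNIP, which binds and inhibits thioredoxin, was higher with unstressed DDX6 at 1.185 ± 0.264 (39.1 against 17.3 CPM, adjusted p = 0.000631). Scaled without mitochondrial genes, TXNIP was also higher with TIA1 (1.13, adjusted p = 0.00017) and DDX6 under arsenite (1.03, 0.00294). With G3BP2 it did not pass under that scaling (0.59, 0.0777) but did by total counts (1.13, 0.00205). GLRX, a glutaredoxin, was lower with G3BP2 at -1.30 ± 0.32 (5.01 against 12.2 CPM, adjusted p = 0.00183), a call lost under total-count scaling (0.0716). It was also lower with unstressed DDX6 when scaled without mitochondrial genes (-0.85, adjusted p = 0.0256), a call likewise lost by total counts (0.391). GLRX did not pass under the former scaling with TIA1 (-0.47, 0.377) or DDX6 under arsenite (0.30, 0.514). In the DDX6 inputs the median arsenite differences of the regulators, the other targets and the redox genes were 0.12, 0.32 and 0.30, beside 0.02 for all genes. MAFF, which rests on few counts, stood at 1.31 ± 0.49 there (adjusted p = 0.178).

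**Figure D4:**
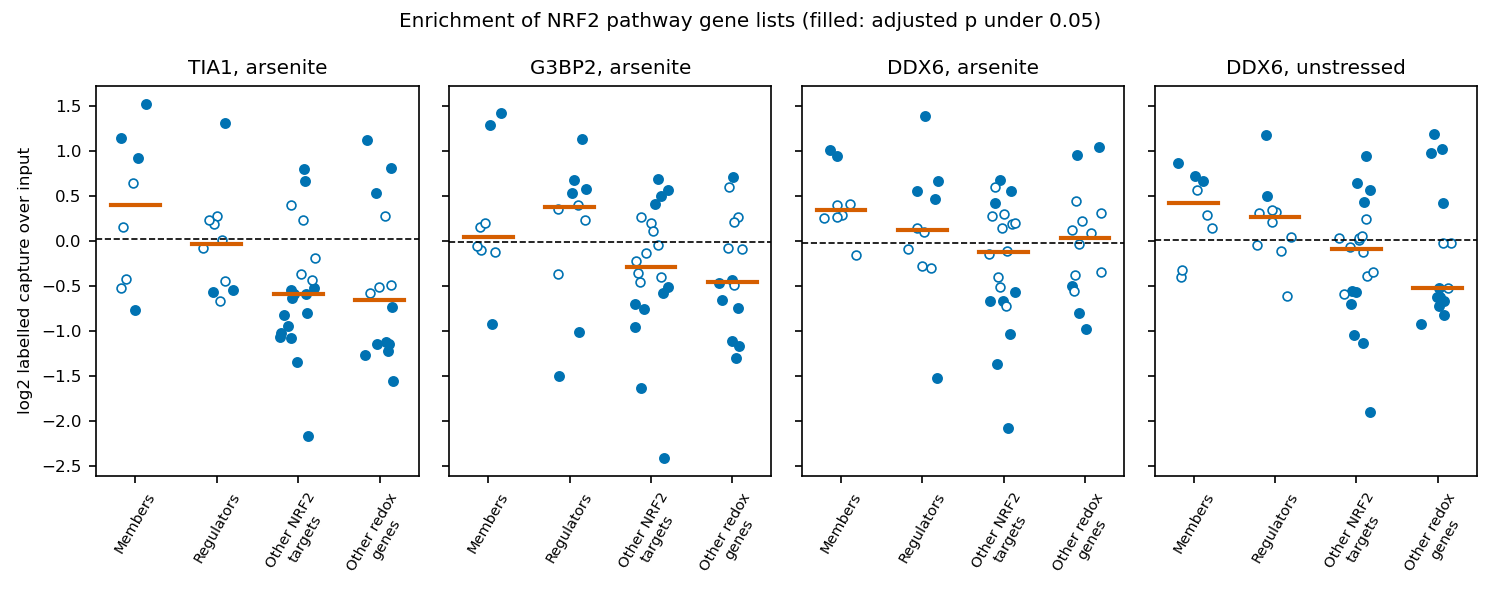
Enrichment over input (log2, vertical axis) of the 8 tested members and of 3 lists of pathway genes, in a panel for each bait and treatment. Each point is a gene, filled where its adjusted p was under 0.05, orange bars are list medians and the dashed line is the median of all 14360 genes; the other targets reach down to -2.41 (FTL, with G3BP2).

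Enrichment followed base content and length across all genes. The Spearman rho over 14327 genes with the GC content of the longest transcript was -0.619 with TIA1, -0.311 with G3BP2, -0.507 with DDX6 under arsenite and -0.484 with unstressed DDX6, and that with length was 0.36, 0.341, 0.223 and 0.28. Members ran in GC content from 35.4% for SLC7A11 and 37.3% for GCLM through 42.8% for TXN, 44.3% for GCLC, 44.8% for TXNRD1, 45.6% for NFE2L2 and 46.0% for NQO1 to 53.6% for SRXN1 and 58.1% for HMOX1, where the median of tested genes was 48.0%. GCLC and TXNRD1 kept positive enrichments after either trend was removed, and the smallest of these 16 values was 0.44, for GCLC in unstressed DDX6 cells without the GC trend. The part of base content and length in the calls was not tested further.

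Across the 12 group means, the genes whose log2 levels were most like those of GCLC were KLHDC10 (Pearson r = 0.982), SMAD5 (0.979) and PPM1B (0.979). Those most like HMOX1 were PIMREG (0.939), CDK9 (0.933) and WSB2 (0.929). The 12 means share captures, inputs and lines, and the coefficients are given as a description.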

How the data were processed

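Per the submitters' processing notes, reads were handled with cutadapt 1.18, FastQC 0.11.8, HISAT2 2.1.0, SAMtools and HTSeq 0.7.2 against GRCh38 (hg38). The authors deposited raw counts for Ensembl genes, 1 column for each library. The strand setting and the handling of multiply mapped reads are not given in the sources used here, so overlapping and antisense genes are uncertain. Symbols, lengths and GC content came from GENCODE release 29, which matched 57388 of 57992 genes.

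edgeR 4.0.16 in R 4.3.3 was used on these counts (filterByExpr, TMM, glmQLFit, two-sided glmQLFTest), with 1 coefficient per group. That left 12 residual degrees of freedom, and the common biological coefficient of variation was 12.9%. DESeq2 1.42.0 was an alternative. The fit was tested on simulated data: with 13574 genes in the simulated TIA1 enrichment, 54% of 100 genes changed by 1 log2 unit and 6% of 100 changed by 0.5 were recovered, with 1 false call. No other gene differed between groups there, and the coefficient of variation was fixed at 12.9%. In the real TIA1 enrichment 5138 of 14360 genes were called, so these shares do not measure the sensitivity of the reported enrichments. Reads carry no molecular identifiers, so depth sets a lower limit of error. The members, lists and rules were chosen with earlier results of these data known. All members were named. From the lists of other pathway genes, up to 4 called genes per comparison with the largest changes were eligible. MAFF under arsenite, BACH1 with G3BP2 and the MAFF, GPX1, TXNIP and GLRX values under other scalings were named after their values were seen. The level of 1 marker of another cell type is not reported here.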

Additional observations from a re-analysis of the deposited data

How the results depend on the processing

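Replicate numbers were not stated to mark a shared batch, and only 2 pairs exist per combination, so the main fit was unpaired. Deviations of same-numbered labelled and input libraries correlated at 0.168 (TIA1), 0.0402 (G3BP2), 0.389 (DDX6 under arsenite) and -0.00417 (unstressed DDX6). With the replicate block 1 member was called for G3BP2 minus DDX6 enrichment in place of 0 (TXN, -0.78, adjusted p = 0.0412) and 2 in place of 1 for G3BP2 minus DDX6 inputs. Of all 14360 genes the block called 228 and 321 in these comparisons. With the block 6 member values gained a call: that of TXN, SLC7A11 enrichment with TIA1 (0.64, adjusted p = 0.0164), its probe dependence with unstressed DDX6 (0.72, 0.0195), its inputs for TIA1 minus G3BP2 (1.09, 0.00536) and G3BP2 minus DDX6 (1.33, 0.012), and NFE2L2 probe dependence with TIA1 (0.50, 0.0272). A further 122 kept their side of the threshold, and 14 of 16 counts of called members stayed within 1.5 times the main count.

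Total-count scaling called 5 members in place of 2 for DDX6 enrichment under arsenite, 6 in place of 3 for unstressed DDX6, and 5 in place of 3 over either DDX6 no-probe capture. Over those no-probe captures it called 6652 of the 14360 genes under arsenite and 6917 without it. Total-count scaling moved the median of all genes by 0.655, 0.531, 0.538 and 0.458 in the 4 enrichments (TIA1, G3BP2, DDX6 under arsenite, unstressed DDX6), by 0.842, 0.314, 0.49 and 0.297 in probe dependence and by -0.214 in the arsenite inputs. Genes called higher and lower then numbered 6354 and 527, 5983 and 967, 5891 and 809, and 5863 and 1205 in the enrichments, where TMM gave 2789 and 2349, 2986 and 2509, 2935 and 2485, and 3285 and 2819. It reversed NFE2L2 enrichment with G3BP2 (0.48) and TXN probe dependence with TIA1 (0.0387). The cause was not tested.

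No filter on low counts called 5 members in place of 3 over the unstressed DDX6 no-probe capture, 1 in place of 0 in the arsenite inputs and 2 in place of 1 for G3BP2 minus DDX6 inputs. Of the 39646 genes then tested, 6765, 247 and 150 were called in these comparisons. Fits to the compared groups alone called 5 members in place of 3 for unstressed DDX6 enrichment, 1 in place of 0 in the arsenite inputs, 4 in place of 2 for TIA1 minus G3BP2 inputs and 2 in place of 1 for G3BP2 minus DDX6 inputs. Among all genes these fits called 7822 of 13316, 157 of 12544, 1568 of 11852 and 85 of 12123. DESeq2 and scaling without mitochondrial genes each called 1 member in place of 2 for TIA1 minus G3BP2 inputs, and 498 and 585 of the 14360 genes. RLE scaling moved none of the 16 counts by over 1.5 times.

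Leaving out 1 library at a time gave 3 to 4 called members for TIA1 enrichment, 3 to 3 for G3BP2, 2 to 3 for DDX6 under arsenite and 2 to 3 for unstressed DDX6. Over no-probe captures the ranges were 4 to 5, 3 to 5, 2 to 3 and 3 to 5, where the 3 for G3BP2 came without its no-probe capture 2 and the 5 for unstressed DDX6 without its no-probe capture 2. Inputs gave 1 to 2 for TIA1 minus G3BP2, 1 to 2 for TIA1 minus DDX6 and 0 to 1 for G3BP2 minus DDX6, and the other comparisons gave 0 to 0. Removal of the GC trend was added after seeing the data. With 2 libraries per group, SRXN1 and NQO1 had few counts.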
